A study of Homo sapiens with 12 samples.

Results

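Mucins and trefoil factors were read in NCM460, a human cell line labelled as normal colonic epithelium, as the 10 genes MUC1, MUC2, MUC4, MUC5AC, MUC5B, MUC13, MUC16, MUC20, TFF1 and TFF3, which were taken by gene name from a table of 58735 genes. Wild-type cells were kept in medium, given TNF-α, or given TNF-α together with bufotenidine, the compound that the study calls 5-OH-TMT. In the fourth group HTRA2, a mitochondrial serine protease, was knocked down by siRNA in cells given TNF-α. Each group had 3 RNA-seq libraries of poly(A) RNA, and the deposited values are FPKM, from which whole reads were recovered. FPKM are fragments scaled to the length of the gene model and to the size of the library. Here that size was not the plain sum of reads on genes, and its scaling is given with the processing. The labels give no dose or time, name no control siRNA for the TNF-α libraries and do not say whether the 3 libraries of a group came from separate cultures, so the p-values measure the spread between these libraries, which may be technical. Transfection and loss of HTRA2 cannot be told apart in the knockdown comparison.

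Mucins are large proteins whose serine- and threonine-rich repeats carry dense O-linked sugars. The gel-forming mucins MUC2, MUC5AC and MUC5B are secreted, and MUC2, made by goblet cells, is the main component of colonic mucus. MUC1, MUC4, MUC13, MUC16 and MUC20 are held in the cell membrane, where they form part of the glycocalyx and some of them associate with receptor tyrosine kinases, while the trefoil peptides TFF1 and TFF3 are small secreted proteins that are released with mucus and promote repair of the epithelial surface.

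NCM460 expressed membrane mucins and almost no gel-forming mucin. Of the 10 genes, 6 had at least 1 read and 4 reached a mean of 0.1 FPKM over the 12 libraries, all 4 of them membrane mucins: MUC1 (mean 8.16 FPKM), MUC20 (3.34), MUC4 (0.179) and MUC16 (0.175). MUC2 had a mean of 0.0301 FPKM from 162 reads in all, and MUC5B had 16 reads. MUC5AC, MUC13, TFF1 and TFF3 had 0 reads in every library, which at the floor of 3 reads allows up to 0.00552, 0.0275, 0.175 and 0.0824 FPKM. All such limits cover counting error only and take each read as independent. Each library held 0, 2 or 4 reads of MUC5B. Whether both mates of a fragment were counted as reads was not tested, and if they were, these limits would be higher. The membrane mucins made up 99.7% to 99.8% of the summed FPKM of the 10 genes in each of the 4 groups.

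The coding repeats of the 3 most abundant mucins are shown because the reads were counted over gene models that hold many copies of them. In the longest coding transcript of MUC1 in GENCODE 29 (GRCh38), a unit of 60 bases occurs in 19 exact copies, and its first copy lies at chr1:155191820-155191879 on the minus strand, in exon 2 of 11. In that of MUC20, a unit of 57 bases has 10 exact copies, beginning at chr3:195725150-195725206 on the plus strand, in exon 1 of 3. In that of MUC4, a unit of 48 bases has 14 exact copies, the first at chr3:195788034-195788081 on the minus strand, in exon 2 of 25. Each unit is printed 5′ to 3′ in the reading frame, and capitals mark the codons for serine or threonine, of which there are 5 of 20 in MUC1, 7 of 19 in MUC20 and 8 of 16 in MUC4.
MUC1: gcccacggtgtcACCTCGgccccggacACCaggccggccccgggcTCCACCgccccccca
MUC20: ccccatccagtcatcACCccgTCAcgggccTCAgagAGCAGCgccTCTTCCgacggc
MUC4: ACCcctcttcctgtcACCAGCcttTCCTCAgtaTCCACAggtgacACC

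Windows of 50 bases that occur more than once within the same transcript made up 42.4% of the longest coding transcript of MUC1, 28.3% for MUC4, 19.7% for MUC20 and 1.07% for MUC16. None of the windows of MUC1, MUC4 or MUC16 matched a transcript of another gene. MUC20 differed in this respect, since 69.1% of its windows also occur in other genes. Of all its windows, 46.6% occur in the pseudogene MUC20P1 and 35.8% in MUC20-OT1, a noncoding RNA that runs on the same strand and overlaps 1820 of the 4249 exon bases of MUC20. How the counting divided such reads is not given in the sources used here, so the level of MUC20 is uncertain and is set beside both of these genes below.

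The 12 libraries held between 31008429 and 37624399 reads on genes. The second knockdown library stood apart from the other knockdown libraries, since the chi-squared of their read counts, divided by its degrees of freedom, was 35.0 and 45.4 against them, 7.35 between them and 7.61 to 26.8 between libraries of the same group elsewhere. It also had the lowest share of reads on mitochondrial genes (2.95%, against 3.69% to 4.68% in the other libraries), so the knockdown results of the members tested and of the gene lists are also given without it. HTRA2 itself was at 14.0, 17.2 and 13.3 FPKM in medium, 15.4, 15.5 and 14.8 FPKM with 5-OH-TMT, 15.4, 14.0 and 14.2 FPKM with TNF-α and 7.44, 7.18 and 7.22 FPKM in the knockdown. The knockdown libraries were below the other 9, with a difference from TNF-α of -0.98 ± 0.0869 (log2 scale, SE, limma, adjusted p = 2.77e-05).

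The colonic label was not borne out by colon markers. None of 10 colon epithelium markers reached a mean of 1 FPKM and 9 of 10 were under 0.1 FPKM. CDX2 and CEACAM5 had 0 reads, CDX1 had 1 read and VIL1 had 2 reads over the 12 libraries. All 8 goblet cell markers, which include MUC2 and TFF3, were under 0.1 FPKM, with a sum per library between 0.0663 and 0.324 FPKM. All 6 general epithelial markers were above 1 FPKM (KRT8 1115 FPKM, KRT18 1142 FPKM, EPCAM 66.6 FPKM, CDH1 66.8 FPKM), and so were all 6 markers of stratified or basal epithelium, among them TP63 (11.7 FPKM), KRT5 (139 FPKM) and KRT14 (36.7 FPKM). Of 5 mesenchymal markers 2 exceeded 1 FPKM (VIM and COL1A1), and none of 4 leukocyte markers did.

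**Figure D1:**
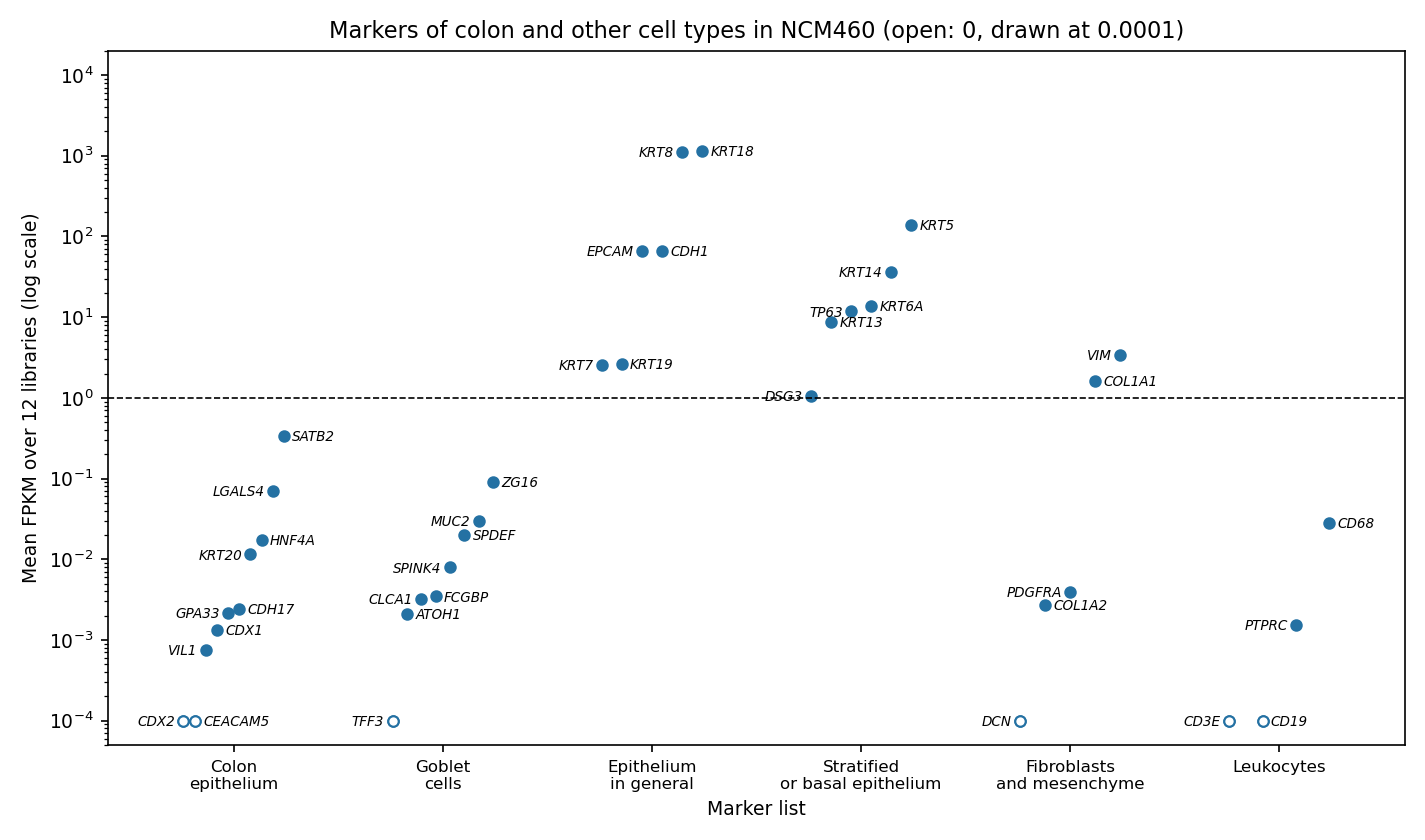
Mean FPKM over the 12 libraries (vertical axis, log scale) of each gene of 6 marker lists (horizontal axis). The dashed line marks 1 FPKM and open points are genes with 0 reads. The colon and goblet cell markers lie below the line, and the general and stratified epithelial markers lie above it.

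Among the 31951 genes above 0, the mean of MUC1 exceeded that of 85.0% and the mean of MUC20 that of 75.7%. MUC4 and MUC16 lay near the middle, above 49.6% and 49.3%, while MUC2 was above 28.0% and MUC5B above 3.33%. FPKM are per length, so the members can be ordered by the deposited values. The place of MUC20 is uncertain, since 69.1% of its windows also occur in other genes and how such reads were counted is not given. MUC1 was higher than MUC20 in 12 of 12 libraries, with a ratio of means of 2.44, and MUC20 was 18.7 times as high as MUC4, with no overlap over the libraries. The order of MUC4 and MUC16 depended on the group: MUC4 was the higher in each of the 9 libraries without the knockdown (means 0.140 and 0.0838 FPKM), and MUC16 in each of the 3 knockdown libraries, so their means over all 12 were nearly equal (ratio 1.03). MUC16 exceeded MUC2 in 12 of 12 libraries.

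**Figure D2:**
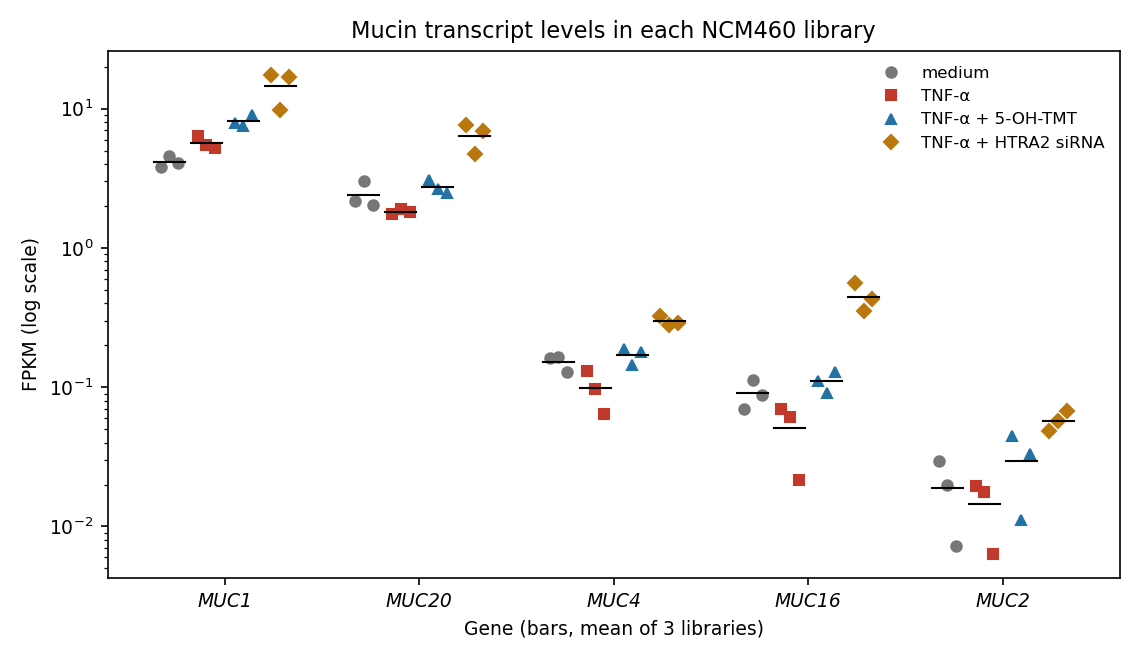
FPKM (vertical axis, log scale) of the 5 mucins with reads in every library, in each of the 12 libraries; symbols give the group and bars the mean of 3 libraries. MUC1 lies between 3.79 and 17.5 FPKM and MUC2 between 0.00635 and 0.0671 FPKM, and the highest group mean of each gene is that of the knockdown.

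MUC1 (ENSG00000185499, chr1:155185824-155192916, minus strand), a widely expressed membrane mucin with a signalling cytoplasmic tail, was at 3.79, 4.61 and 4.10 FPKM in medium (4.16 ± 0.416, SD, n = 3), from 619 to 698 reads a library. With TNF-α it was at 6.35, 5.52 and 5.25 FPKM (5.71 ± 0.571), and with 5-OH-TMT at 7.93, 7.46 and 8.95 FPKM (8.11 ± 0.763). In the knockdown libraries it was at 17.5, 9.71 and 16.8 FPKM (14.7 ± 4.31). The 4 groups did not overlap, in the order medium, TNF-α, 5-OH-TMT and knockdown, and the second knockdown library was the lowest of its group. Shares of all genes that separate between 2 groups are given with the comparisons below. For separation from all other groups, here and for the members that follow, the share of all genes was not counted.

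MUC20 (ENSG00000176945, chr3:195720882-195741123, plus strand), a mucin known as a binding partner of the receptor MET, was at 2.16, 3.03 and 2.02 FPKM in medium (2.40 ± 0.545, SD, n = 3). It was at 1.75, 1.90 and 1.81 FPKM with TNF-α (1.82 ± 0.0760) and at 3.08, 2.66 and 2.49 FPKM with 5-OH-TMT (2.74 ± 0.308). The knockdown libraries held 7.58, 4.71 and 6.93 FPKM (6.41 ± 1.50). The TNF-α libraries were below all others, the 5-OH-TMT libraries overlapped those in medium, and the knockdown libraries were above all others.

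MUC4 (ENSG00000145113, chr3:195746765-195812277, minus strand), which binds the receptor ERBB2 through its membrane subunit, had 51 to 249 reads a library. Its levels were 0.162, 0.164 and 0.129 FPKM in medium, 0.132, 0.0978 and 0.0641 FPKM with TNF-α, and 0.187, 0.145 and 0.179 FPKM with 5-OH-TMT. The knockdown libraries were at 0.324, 0.281 and 0.287 FPKM, above the other 9 libraries. MUC16 (ENSG00000181143, chr19:8848844-8981342, minus strand), the mucin that carries the CA125 epitope, had 35 to 885 reads a library. It was at 0.0698, 0.113 and 0.0880 FPKM in medium, 0.0703, 0.0615 and 0.0214 FPKM with TNF-α, and 0.110, 0.0912 and 0.129 FPKM with 5-OH-TMT. The knockdown libraries, at 0.560, 0.351 and 0.430 FPKM, were again above all others, and the third TNF-α library was the lowest of the 12 for both genes.

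TNF-α against medium asked how the cytokine moved these genes. None of the 4 members tested passed the test in this comparison, in a limma model of log2(FPKM + 0.1) fitted to the 18079 genes with a mean of 0.1 FPKM or more, where 3.22% of genes were called higher and 0.885% lower at an adjusted p under 0.05. MUC1 differed by 0.44 ± 0.19 (log2 scale, SE, limma, adjusted p = 0.274) and was higher in 3 of 3 libraries than in any medium library, as were 11.1% of all genes. MUC20 differed by -0.36 ± 0.18 (limma, adjusted p = 0.393) and was lower in 3 of 3 libraries, as were 8.74% of all genes. MUC4 and MUC16 overlapped between the groups, with differences of -0.36 ± 0.26 (limma, adjusted p = 0.594) and -0.34 ± 0.29 (limma, adjusted p = 0.670). Of the 4, 1 (MUC1) had an unadjusted p under 0.05, as did 14.8% of all genes, and limma voom on the recovered reads also called 0. By the threshold that the study used (fold change of 2 or more and unadjusted p not above 0.05), no member and 2.73% of all genes were called. Without the second knockdown library, which belongs to neither group compared here, MUC1 passed with the same difference (limma, adjusted p = 0.0274) beside 4.81% of all genes, and over the libraries left out in turn its adjusted p reached up to 0.528.

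The addition of 5-OH-TMT to TNF-α gave values above those with TNF-α alone for all 4 mucins tested, and none passed the test. Of the 4, 2 (MUC1 and MUC20) had an unadjusted p under 0.05, as did 20.1% of all genes. On the recovered reads 0 were called, with adjusted p from 0.0527 for MUC16 to 0.0949 for MUC1 (limma voom). MUC1 differed by 0.50 ± 0.19 on the log2 scale (95% CI 0.10 to 0.91; limma, unadjusted p = 0.0196, adjusted p = 0.171) and MUC20 by 0.56 ± 0.18 (95% CI 0.17 to 0.95, limma, adjusted p = 0.139). The differences of MUC4 and MUC16 were 0.46 ± 0.26 (limma, adjusted p = 0.338) and 0.49 ± 0.29 (limma, adjusted p = 0.371). In each of the 4 genes every 5-OH-TMT library was above every TNF-α library, as was so for 16.3% of all genes. At an adjusted p under 0.05, 0.0332% of genes were called higher and 0.00553% lower. The study's threshold, taken on the log2(FPKM + 0.1) scale, was passed by 1.5% of genes and by no member. That scale understates changes at the level of MUC16, which had a ratio of mean FPKM of 2.16 and a voom difference of 1.29. The calls changed with the libraries in the fit: with the 2 groups fitted alone, MUC1 (limma, adjusted p = 0.0478) and MUC20 (limma, adjusted p = 0.0449) passed and 5.04% of all genes were called, and without the second knockdown library MUC1 passed (limma, adjusted p = 0.0395) beside 3.05% of all genes. Over the libraries left out in turn the adjusted p reached up to 0.372 for MUC1 and 0.373 for MUC20.

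The membrane mucins with a measurable level were higher in the HTRA2 knockdown than with TNF-α alone. MUC1 rose by 1.30 ± 0.19 on the log2 scale (limma, adjusted p = 0.000589), a 2.57-fold ratio of mean FPKM. MUC20 rose by 1.73 ± 0.18 (limma, adjusted p = 7.36e-05), a ratio of 3.52, and MUC4 by 1.02 ± 0.26 (limma, adjusted p = 0.0174), a ratio of 3.04. These were the 3 members whose mean over the 9 other libraries also reached 0.1 FPKM, and all 3 were called, where 9.35% of all genes were called higher and 8.08% lower.

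MUC16 rose by 1.85 ± 0.29 (limma, adjusted p = 0.00117), with a ratio of mean FPKM of 8.75. Its mean over the 9 other libraries was 0.0838 FPKM, so it entered the test only through the knockdown libraries and its call adds no support to the count. With every gene above 0 in the fit, which does not select on the knockdown, its adjusted p was 0.00102 over 31951 genes (limma). The log2(FPKM + 0.1) scale understates changes at such levels, and voom on the recovered reads gave 3.29 for MUC16 and 1.66 for MUC4. MUC1, MUC20 and MUC4 also passed the study's threshold, as did 4.23% of all genes, and lay above every TNF-α library in every knockdown library, as did 17.5% of all genes. MUC16 met both criteria too, with the same limit on its selection. In the order of all 18079 differences from the highest down, MUC16 was at place 131, MUC20 at 168, MUC1 at 406 and MUC4 at 744. The knockdown and the 5-OH-TMT comparisons share the same TNF-α libraries.

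Without the second knockdown library the differences were 1.58 for MUC1 (limma, adjusted p = 2.05e-05), 1.94 for MUC20 (limma, adjusted p = 4.23e-05), 1.98 for MUC16 (limma, adjusted p = 0.00234) and 1.05 for MUC4 (limma, adjusted p = 0.0320). The call of MUC4 was the least secure: it was lost without the third TNF-α library (0.89, limma, adjusted p = 0.0542) or without the first knockdown library (0.97, limma, adjusted p = 0.0598), and over the 12 libraries left out in turn its adjusted p ranged from 0.0183 to 0.0598. The summed FPKM of the 6 markers of stratified or basal epithelium was also higher in the knockdown (231 to 275) than with TNF-α (181 to 196). It was 205 to 209 with 5-OH-TMT and 179 to 217 in medium, which overlapped TNF-α. KRT5 made up the largest part of the sum (mean 139 FPKM). The part of these markers in the result was not tested. In RNA from whole cultures, more cells of a kind and more RNA per cell cannot be told apart.

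**Figure D3:**
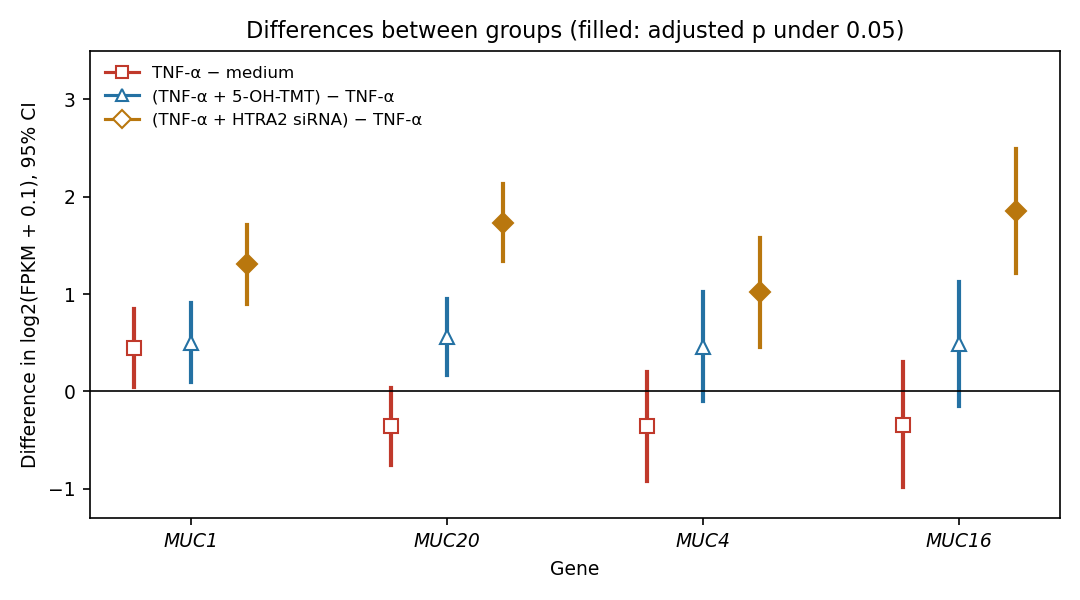
Differences in log2(FPKM + 0.1) between groups (vertical axis) with 95% confidence intervals for the 4 mucins tested (horizontal axis); filled symbols have an adjusted p under 0.05 (limma). Only the knockdown comparison has filled symbols, from 1.02 for MUC4 to 1.85 for MUC16.

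MUC20P1, which shares windows with MUC20, was at 0.811, 0.668 and 0.447 FPKM with TNF-α and at 2.69, 1.29 and 2.83 FPKM in the knockdown, a difference of 1.63 ± 0.33 (limma, adjusted p = 0.00541). MUC20-OT1, which overlaps MUC20, was at 0.823, 0.667 and 0.844 FPKM with TNF-α and at 0.934, 1.03 and 0.711 FPKM in the knockdown, and the groups overlapped (0.17 ± 0.17, limma, adjusted p = 0.563). Reads from the 46.6% of MUC20 windows that also occur in MUC20P1 cannot be assigned apart here. The overlapping noncoding RNA did not pass the test that MUC20 passed. The difference between MUC20 and MUC20-OT1 was not tested.

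MUC2 (ENSG00000198788, chr11:1074875-1110511, plus strand) was read in every library at very low counts. The medium libraries held 13, 8 and 3 of its reads, the TNF-α libraries 9, 7 and 3, the 5-OH-TMT libraries 20, 5 and 15, and the knockdown libraries 22, 26 and 31. The knockdown libraries were above all 9 others, at the closest by 22 reads against 20, while the other groups overlapped. The share of genes at such low levels that separate in this way was not counted. MUC2 was at 0.0145 ± 0.00709 FPKM with TNF-α and 0.0574 ± 0.00951 FPKM in the knockdown (SD, n = 3), a ratio of 3.96. The two-sided exact permutation p of the knockdown against TNF-α was 0.1, which is as low as 3 against 3 libraries can go. With every gene above 0 in the fit, the difference was 0.46 on the log2(FPKM + 0.1) scale and did not pass (limma, adjusted p = 0.0750). Against TNF-α, the exact permutation p of 5-OH-TMT was 0.3, and that of TNF-α against medium was 0.5.

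MUC5B (ENSG00000117983, chr11:1223066-1262172, plus strand), a gel-forming mucin of the airway, had 0 reads in each medium library. The TNF-α libraries held 2, 4 and 2 of its reads, the 5-OH-TMT libraries 2, 4 and 0, and the knockdown libraries 0, 0 and 2. TNF-α and medium did not overlap (exact permutation p = 0.1), but only 2 libraries exceeded the floor of 3 reads, so no fold is given. Part of these few reads could belong to MUC5B-AS1, an antisense gene that overlaps 434 exon bases of MUC5B, if the counting ignored strand.

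**Figure D4:**
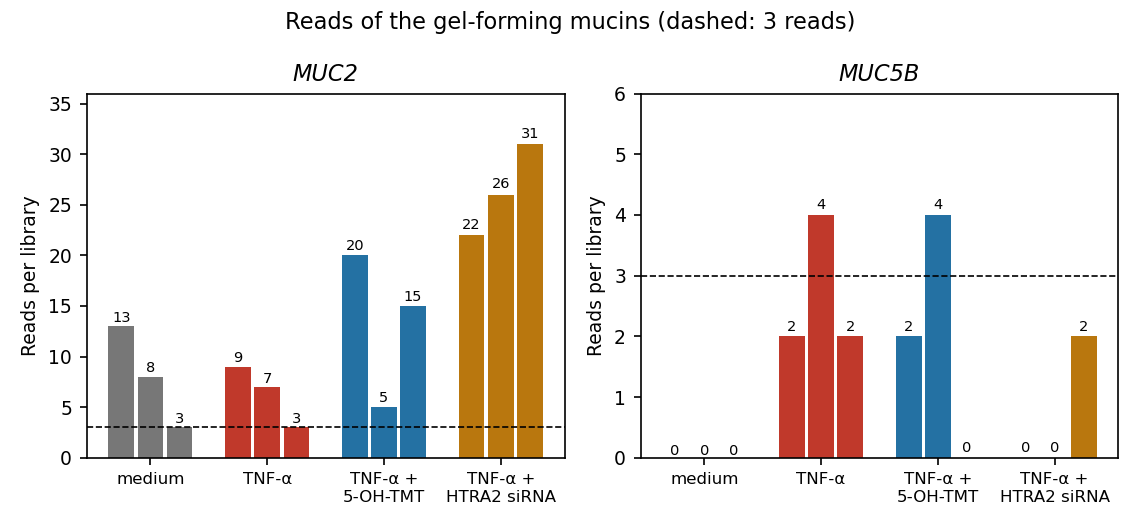
Recovered reads per library (vertical axis) of MUC2 and MUC5B, with 1 bar for each of the 3 libraries of a group (horizontal axis) and the count printed above it. MUC2 reaches 22 to 31 reads in the knockdown libraries and 3 to 20 reads elsewhere, and MUC5B stays at 4 reads or fewer.

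In a list of 15 further mucin-like and trefoil genes, 2 reached 0.1 FPKM: CD164, a small sialomucin (19.7 FPKM), and OVGP1, the oviduct mucin (0.206 FPKM). Neither passed the test in any of the 3 comparisons (limma), and 1 of them had an unadjusted p under 0.05 with 5-OH-TMT, as did 20.1% of all genes. Without the second knockdown library again neither passed, and the larger of their knockdown differences was 0.92 in place of 0.59. The gut membrane mucins MUC12 and MUC3A had 162 and 47 reads over the 12 libraries, MUC17 had 2, and MUC15, MUC21, EMCN and TFF2 had 0.

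Genes that build mucin O-glycans were expressed and, in the knockdown, 8 of 21 tested (of 25 listed) rose and 0 fell, where 9.35% of all genes rose and 8.08% fell, with a median difference of 0.35 against -0.0034 over all genes. They included ST6GALNAC2, a sialyltransferase with a mean of 2.73 FPKM with TNF-α and 6.70 FPKM in the knockdown (1.30 ± 0.20, limma, adjusted p = 0.00112), GALNT12 (0.70 ± 0.096, limma, adjusted p = 0.000454), GALNT6 (0.53 ± 0.080, limma, adjusted p = 0.000908) and GALNT2 (0.48 ± 0.060, limma, adjusted p = 0.000260), which attach the first sugar, and FUT3, the Lewis fucosyltransferase (0.60 ± 0.10, limma, adjusted p = 0.00183). TNF-α and 5-OH-TMT gave 0 calls on this list, with 4 and 8 genes at an unadjusted limma p under 0.05, where 14.8% and 20.1% of all genes were. Without the second knockdown library the knockdown count was again 8 higher and 0 lower, where 18.5% of all genes were called in either direction, and 1 gene of the list passed with 5-OH-TMT, where 3.05% of all genes did.

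Genes of goblet cell maturation and secretion were split. Of 25 listed, 11 were tested, and ATOH1, the factor that specifies secretory cells, had 2 reads in all. In the knockdown 4 of the 11 rose and 1 fell, against 9.35% and 8.08% of all genes, with a median of 0.28. AGR2, a disulfide isomerase needed to fold MUC2, rose from a mean of 3.88 to 7.62 FPKM, by 0.96 ± 0.10 (limma, adjusted p = 7.45e-05), KLF4 by 0.62 ± 0.11 (limma, adjusted p = 0.00251) and FOXA1 by 0.57 ± 0.13 (limma, adjusted p = 0.0101), while FOXA2 differed by -0.78 ± 0.13 (limma, adjusted p = 0.00165). With TNF-α 1 rose and 1 fell, against 3.22% and 0.885% of all genes. AGR2 differed by -0.46 ± 0.10 (limma, adjusted p = 0.0197) and XBP1, a factor of secretory capacity, by 0.38 ± 0.067 (limma, adjusted p = 0.00587). No gene of the list passed with 5-OH-TMT, where 3 of the 11 and 20.1% of all genes had an unadjusted limma p under 0.05. Without the second knockdown library 5 rose and 1 fell in the knockdown, where 18.5% of all genes were called. TNF-α then gave 2 higher and 1 lower, where 4.81% of all genes were called.

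Partners and sheddases of membrane mucins were nearly all expressed, with 14 of 15 tested. In the knockdown 6 of the 14 rose and 1 fell, against 9.35% and 8.08% of all genes, with a median of 0.22. MMP14, a membrane metalloproteinase with means of 59.9 and 105 FPKM (0.80 ± 0.078, limma, adjusted p = 5.14e-05), ADAM10 (0.47 ± 0.10, limma, adjusted p = 0.00886) and ADAM17 (0.46 ± 0.083, limma, adjusted p = 0.00266) rose, and so did LGALS3, the mucin-binding galectin (0.34 ± 0.097, limma, adjusted p = 0.0321). EZR, which links membrane proteins to actin, differed by -0.36 ± 0.068 (limma, adjusted p = 0.00330). With TNF-α 3 of the 14 rose and 0 fell, against 3.22% and 0.885% of all genes. Those that rose included EGFR (0.66 ± 0.084, limma, adjusted p = 0.000577) and ADAM17 (0.37 ± 0.083, limma, adjusted p = 0.0250). With 5-OH-TMT 0 genes passed, and 4 of the 14 and 20.1% of all genes had an unadjusted limma p under 0.05. Without the second knockdown library 7 rose and 1 fell in the knockdown, TNF-α gave 3 higher and 2 lower, and 5-OH-TMT gave 1 higher, where 18.5%, 4.81% and 3.05% of all genes were called.

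**Figure D5:**
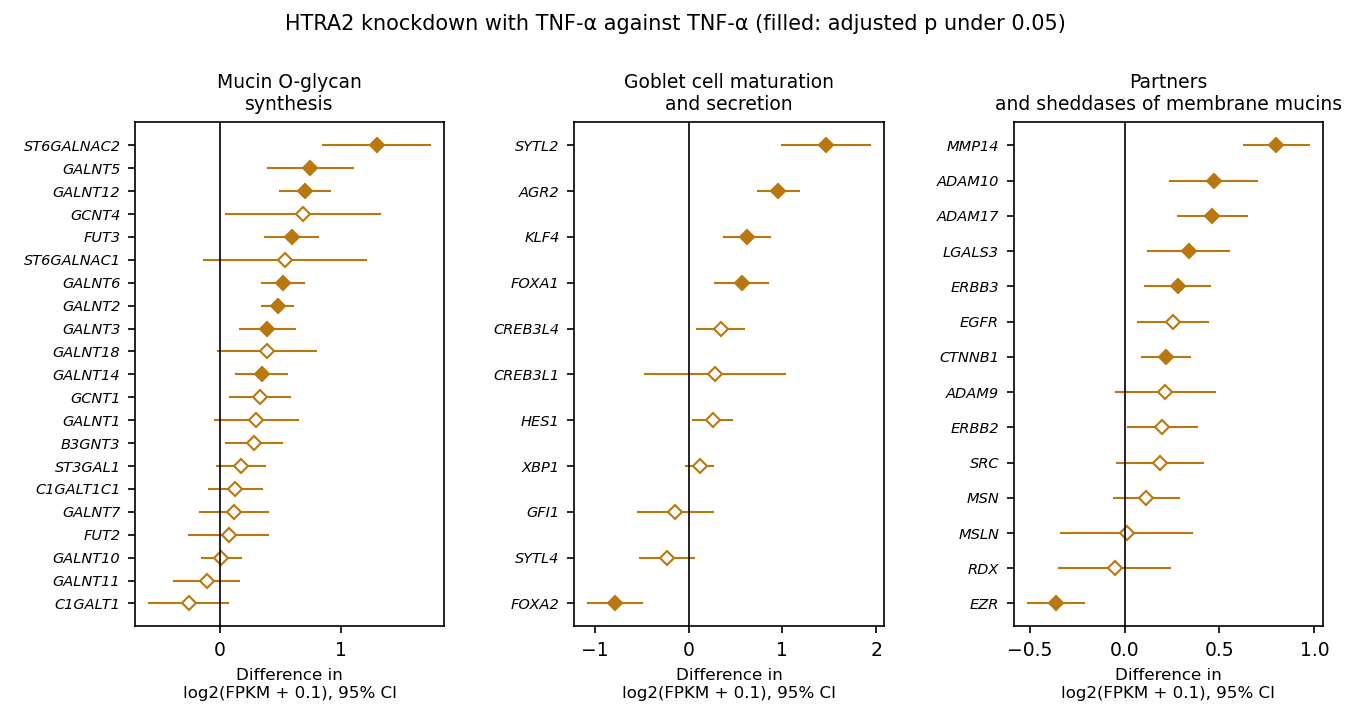
Difference in log2(FPKM + 0.1) between the knockdown and TNF-α (horizontal axis, with 95% confidence interval) for each tested gene of 3 lists (vertical axis); filled symbols have an adjusted p under 0.05 (limma). The called genes lie right of 0 in the O-glycan list, and FOXA2 and EZR are the called genes left of 0 in the other lists.

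The genes whose pattern over the 12 libraries was closest to that of MUC1, by the root-mean-square difference of mean-centred log2(FPKM + 0.1) among 11184 genes with a mean of at least 1 FPKM, were ARSI (0.15), UBE2L6 (0.16) and PSMB10 (0.16). UBE2L6, an enzyme of ISG15 conjugation, had group means of 25.6, 32.2, 43.2 and 74.6 FPKM in medium, TNF-α, 5-OH-TMT and the knockdown. These genes were chosen for their likeness over the same libraries, so an order shared with MUC1 is no separate result. The closest to MUC20 were TMPRSS4 (0.19), a membrane serine protease, ALOX5 (0.20) and KRT15 (0.22), a basal keratin with group means of 18.1, 11.8, 17.1 and 37.8 FPKM.

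Sequence upstream of the starts was held for 5 of the 10 genes in RefSeq (GRCh38.p14), and for MUC1, MUC2, MUC4 and MUC13 that start lay within 100 bases of one in GENCODE 29, unlike that of MUC16. MUC5AC, MUC5B, MUC20, TFF1 and TFF3 were not matched. The 250 bases before the start of MUC1 and MUC4, the members of these 4 that rose in the knockdown, were searched on both strands for GGGCGG (the GC box), TTCNNNGAA (the STAT motif), TGAGTCA or TGACTCA (the AP-1 motif) and the κB motif. MUC1 (chr1:155192916-155193165, minus strand) and MUC4 (chr3:195811930-195812179, minus strand) follow 5′ to 3′, with every match in capitals.
MUC1: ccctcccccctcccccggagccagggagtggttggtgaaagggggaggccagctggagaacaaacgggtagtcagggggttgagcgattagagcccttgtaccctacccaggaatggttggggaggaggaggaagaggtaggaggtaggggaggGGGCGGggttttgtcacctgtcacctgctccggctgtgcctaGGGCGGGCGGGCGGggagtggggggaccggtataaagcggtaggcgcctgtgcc
MUC4: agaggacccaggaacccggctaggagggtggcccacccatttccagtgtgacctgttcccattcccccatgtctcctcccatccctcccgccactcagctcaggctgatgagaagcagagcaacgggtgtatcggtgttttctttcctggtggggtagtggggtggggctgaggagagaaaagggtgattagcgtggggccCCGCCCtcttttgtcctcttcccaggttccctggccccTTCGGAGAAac

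MUC1 held 4 GC boxes, 3 of which overlap between bases -54 and -41 from the start, and MUC4 held 1 GC box. GC boxes occurred in 42.6% of 35116 upstream windows of this length. MUC4 held a STAT motif at bases -11 to -3, a motif found in 6.57% of all windows. The AP-1 motif was found in MUC13 and in 4.20% of all windows, and the κB motif in none of the 4 genes and in 5.21% of all windows. The matches are descriptions of these letters and say nothing of binding.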

How the data were processed

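Total RNA of NCM460 cells was sequenced as poly(A)-selected libraries. The authors deposited 1 table that gives each library's FPKM for each gene and the length of its model. Per the submitters' processing notes the tools were CASAVA 1.8, HISAT2 2.0.4 and HTSeq 0.9.1 on hg38, and strandedness is not given in the sources used here. All 58735 gene identifiers matched GENCODE 29 in chromosome, start and end. Reads were recovered as FPKM times gene length times a step per library, and 100% of values came out whole within 0.05 reads. Depth was 31008429 to 37624399 reads on genes a library. The ratio of the largest to the smallest median-of-ratios factor of the deposited FPKM was 1 over 16743 genes, so the table was already scaled in this way.

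Group means of log2(FPKM + 0.1) were compared with limma 3.58.1 (R 4.3.3; eBayes with trend; two-sided; Benjamini-Hochberg over 18079 genes whose mean FPKM reached 0.1), and genes were called at an adjusted p under 0.05. MUC2 and MUC5B were compared by exact permutation. In 5 simulated tests of the knockdown comparison with 200 genes changed, 152 to 168 were recovered with 6 to 12 false calls. The changed genes were drawn from those with many reads and no library was made to stand apart. The figures therefore do not cover genes of few reads or a library like the second knockdown library. Members and lists were chosen with earlier results of these data known. The 10 members are all named; of the other lists, up to 6 genes called in any comparison with a mean FPKM of at least 1 could be named, by size of difference. Alternatives were other pseudocounts, filters and scalings, no trend, the replicate number as a term, voom on recovered reads, the 2 groups alone and each library left out. Those added after seeing the data were scaling by the plain sum of reads, leaving out the knockdown library 2 and TNF-α library 3 together, and list counts without the former. Repeats were searched as periods of 24 to 120 bases in the coding part of the longest coding transcript.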

Additional observations from a re-analysis of the deposited data

How the results depend on the processing

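The count of mucins called was 0 for TNF-α, 0 for its combination with 5-OH-TMT and 4 for the knockdown, or 3 without MUC16, which was tested only through its knockdown values, and no difference changed sign under any alternative run. With TNF-α the count was 0 to 1 over the libraries left out in turn, and 1 without knockdown library 2 and TNF-α library 3 together, in both cases through MUC1. With 5-OH-TMT it was 0 to 1 over the libraries left out in turn (MUC1) and 2 with only the 2 groups compared (MUC1 and MUC20). Without knockdown library 2, 4.81% of all genes were called with TNF-α and 3.05% with 5-OH-TMT. With the 2 groups alone, 5.04% were called with 5-OH-TMT. In the knockdown the count with MUC16 was 3 to 4 over the libraries left out in turn. It was 2 with a mean of at least 1 FPKM, since MUC4 and MUC16 were then not tested. Without knockdown library 2, 18.5% of all genes were called in the knockdown. For the other libraries left out, the share of all genes was not counted. MUC4 was also lost without knockdown library 2 and TNF-α library 3 together (0.92, limma, adjusted p = 0.0742). For the calls gained or lost by leaving libraries out, the cause was not tested.

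Pseudocounts, filters, scalings and voom moved the knockdown difference from 0.46 to 3.29 for MUC16 and from 0.24 to 1.66 for MUC4 (log2 scale), and from 1.19 to 1.35 for MUC1 and 1.37 to 1.79 for MUC20. All 4 kept their calls wherever they were tested under these settings. With the replicate block, the counts were 0, 0 and 4, so it changed no call of a member. The numbers showed no pairing of the samples by this measure: over 18 pairs of libraries with the same number the correlation of deviations ran from -0.104 to 0.0382, and 0 pairs exceeded 0.1. With 3 libraries a group, the measure cannot settle whether libraries shared a culture or a preparation. Depth limits MUC2, with at most 31 reads a library, and MUC5B, with at most 4.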
